A study of Mus musculus with 3 samples.

Results

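The genes described here encode the proteins that splice messenger RNA, cut and polyadenylate its 3′ end and unwind RNA. They were chosen by name alone, as the genes whose symbol in the array's annotation begins with Srsf or Sfrs, Sf3a or Sf3b, Hnrnp or Hnrp, Snrp, Prpf, Ddx, Dhx, Cpsf or Cstf. The array held 118 probes for 114 such genes, of the 16390 genes it named. By these name stems they fell into 9 families: 15 SR proteins, 7 SF3A and SF3B subunits, 14 hnRNP proteins, 12 snRNP proteins, 11 Prpf factors, 31 DEAD-box and 15 DEAH-box helicases, 6 CPSF and 3 CstF subunits. Many symbols of the array are old. Current names are used below, and 9 genes that now carry a name outside these stems (Clasrp, Eif4a3, Ints11, Scaf11, Scaf4, Sfswap, Snrnp70, Srek1 and Sugp2) were kept with the family of their old name.

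A pre-mRNA is spliced by the spliceosome, which is built from small nuclear ribonucleoproteins (snRNPs) and rearranged step by step by RNA helicases. SR proteins mostly promote the use of an exon and hnRNP proteins often repress it. CPSF recognises the polyadenylation signal and cuts the transcript near it, and CstF binds downstream of the cleavage site. In the B lineage this machinery is known for a choice in Ighm, the IgM heavy chain gene. B cells mainly make its membrane form, and plasma cells use a polyadenylation site further upstream and make the secreted form. Exons of Ptprc, which encodes CD45, are also spliced differently between lymphocyte states, and B220 is the isoform of CD45 carried by B cells.

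The cells came from IL-10 Venus mice, whose Venus fluorescence reports Il10 expression. The populations of interest were Venus+ CD138hi cells of the bone marrow and Venus+ CD138hi cells of the spleen, CD138 being a surface protein of plasma cells, and both were set against B220+ cells of the spleen. All 3 populations were freshly sorted from mice of this reporter genotype. Each was hybridised to 1 Toray 3D-Gene array read in 1 colour, so no difference has a replicate, none was tested, and array, sort and population cannot be told apart. The sources used here give neither the number of mice behind a sort nor their age.

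Values are normalised signals, on a scale on which the median detected probe of every array is 25. A gene is called higher or lower where both arrays detected it and its signals were at least 2-fold apart. The error after ± is a spot error on the log2 scale, from blank and repeated control spots of the arrays, and says nothing of the spread between mice. The level of 1 probe says little against that of another, so folds set each gene only against itself, and medians or sums over several probes describe an array as a whole. Fewer cells that express a gene and less of its RNA in each cell cannot be told apart.

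The arrays detected 15857 (67.6%), 17239 (73.4%) and 16917 (72.1%) of 23473 probes in bone marrow Venus+, spleen Venus+ and B220+ cells. The summed signal of 6 plasma cell markers was 20513, 12380.1 and 697, with 6, 6 and 5 of them detected, and that of 8 B cell markers was 4402, 10298 and 28009, with 6, 7 and 8 detected. Xbp1 (8402, 7174 and 354) and Ighm (8234, 2433 and 10.97) made up most of the plasma cell sums of both Venus+ populations. Prdm1 (34.4, 81.5 and 8.72) and Irf4 (688, 1128 and 321) ran against these sums between the Venus+ populations. Pax5 and Cr2 were not detected in bone marrow Venus+ cells, and Cr2 was not detected in spleen Venus+ cells. Fcer2a (166, 62.4 and 349) and Ebf1 (195, 149 and 383) were higher in bone marrow than in spleen Venus+ cells, against the B cell sums. Markers of other cells also differed between the arrays. The sums were 1588, 1283 and 40.7 for 7 T cell markers (7, 7 and 5 detected), 213, 29.1 and 5018 for 7 neutrophil markers (7, 3 and 7 detected), 32.4, 17.6 and 132 for 4 erythroid markers and 272, 136 and 58.3 for 5 monocyte markers. Cd247 (1038, 637 and 15.7) and Cd28 (477, 528 and 5.52) made up most of the T cell sums of both Venus+ populations. The other T cell markers reached at most 24.5, 55.7 and 7.89. Cd68 (241, 111 and 33.0) made up most of each monocyte sum. Mpo ran against the neutrophil sums, with 29.8 on the bone marrow array, no detection in spleen Venus+ cells and 2.22 on the B220+ array. The part of other cells in the results below was not tested.

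The splicing, polyadenylation and helicase genes lay below the other genes of the arrays in Venus+ CD138hi against B220+ cells, and further below them in the bone marrow than in the spleen. All 114 were detected on at least 1 array and 106 on all 3, a larger share than the 10769 of 16390 genes named on the array. Their median signal was 72.0 in bone marrow Venus+, 114 in spleen Venus+ and 171 in B220+ cells, while that of all detected genes was 26.5, 28.1 and 28.2.

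In bone marrow Venus+ against B220+ cells, 64 of the 106 members detected on both arrays were lower and 7 were higher, and of all genes 30.7% were lower and 22.4% higher. The members' median log2 ratio was -1.31, and -1.06 when the median of all genes was subtracted. A difference of at least 4-fold was reached by 29 lower members and 1 higher member, Prpf40b, where 12.6% of all genes were that much lower and 8.92% that much higher. The 2 arrays differ in organ as well as in cell type. In the spleen, Venus+ against B220+ cells, 31 of 111 members were lower and 4 higher, against 16.5% and 15.7% of all genes, and the median was -0.55 (-0.53 after subtraction). Sf3b1 was the 1 member at least 4-fold lower there and Prpf40b the 1 at least 4-fold higher, against 3.06% and 5.06% of all genes. Between the Venus+ populations, bone marrow against spleen, 33 of 107 members were lower and 0 higher, against 15.2% and 4.33% of all genes, with a median of -0.76 (-0.58 after subtraction). These 3 comparisons share arrays in pairs and are not independent of each other. Family counts below are to be read against the shares of all genes given here.

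**Figure D1:**
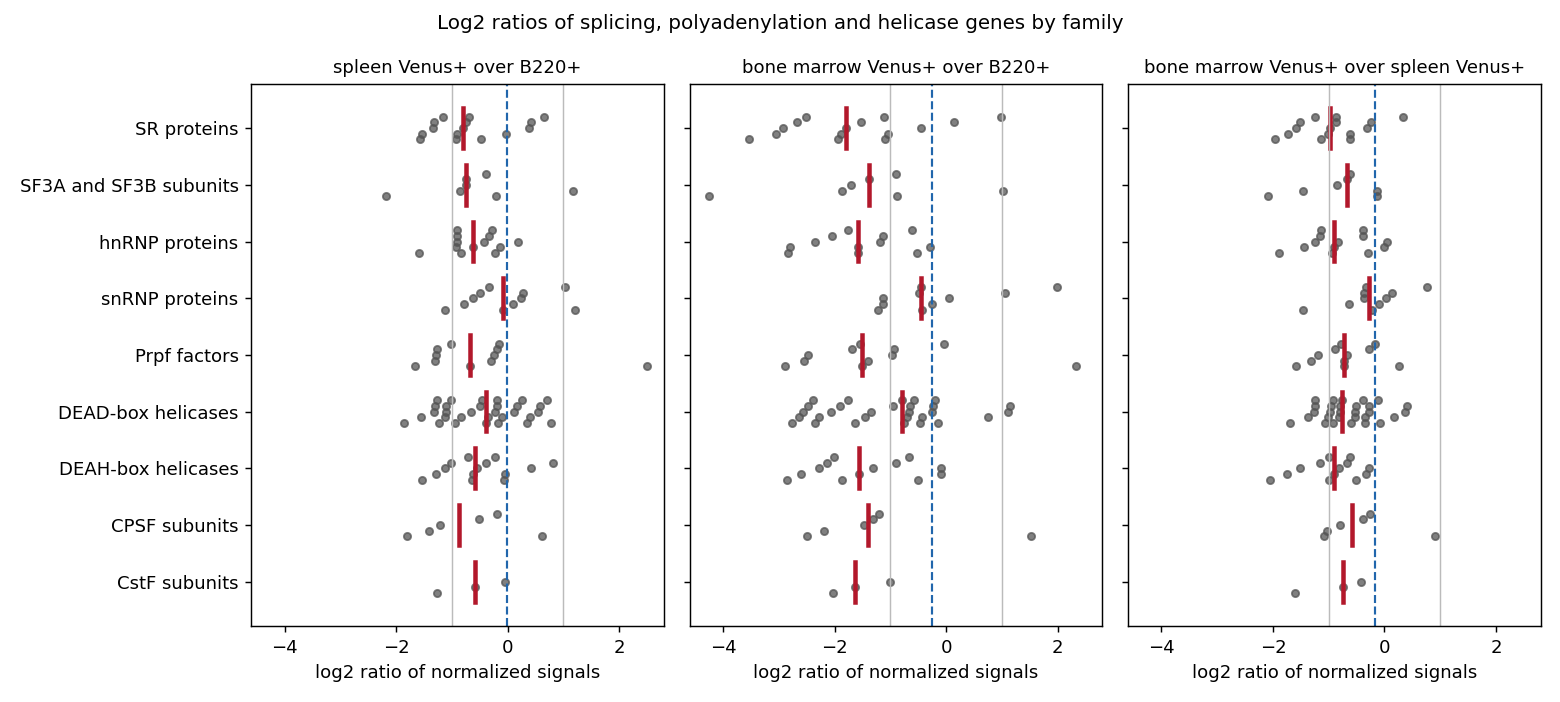
Each grey point is the log2 ratio of 1 gene (horizontal axis) in its family (vertical axis), in 1 panel for each comparison, with genes detected on both arrays shown. Red bars are family medians, the dashed blue line is the median of all genes (-0.02, -0.24 and -0.17 from left to right) and grey lines mark 2-fold. Most points and every red bar lie left of the dashed line, with the bars of the snRNP proteins closest to it.

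The members are brighter than most genes, and the arrays differed in their bright probes. The upper quartile of detected signals was 76.2 in bone marrow Venus+, 84.0 in spleen Venus+ and 104 in B220+ cells, although all share a median of 25. The members were therefore also read against 3436 genes of similar brightness, with a mean signal over the 3 arrays of 44.5 to 213, a range that held 52 members. Of these 52, 36 were lower in bone marrow Venus+ cells than in B220+ cells, 23 in spleen Venus+ than in B220+ cells and 14 in bone marrow than in spleen Venus+ cells, against 41.2%, 21.5% and 17.6% of the genes in that range. The medians of the 52 were -1.55, -0.75 and -0.78, against -0.72, -0.31 and -0.37 in that range. The members lay below genes of their brightness at the median (differences of -0.82, -0.43 and -0.41), but by less than they lay below all genes.

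The count of lower members also depends on the scale. The 2 positive control spots, whose content the sources used here do not give, were dimmer after normalisation in Venus+ cells, at 1313, 2718 and 4191 for the dimmer control in bone marrow Venus+, spleen Venus+ and B220+ cells and 9520, 12603 and 20022 for the brighter. Scaling the arrays to the mean of these spots moved every log2 ratio up by 1.37, 0.65 and 0.73 in bone marrow Venus+ against B220+, spleen Venus+ against B220+ and bone marrow against spleen Venus+ cells. The log2 ratios of the dimmer and brighter control were -1.67 and -1.07, -0.62 and -0.67, and -1.05 and -0.40 in the same order, so they do not give 1 shift. This scaling left 19, 4 and 6 members lower, with 20, 15 and 5 higher, where 8.48%, 5.57% and 3.87% of all genes were lower and 53.4%, 34.7% and 27.5% higher. The members' median log2 ratios were then 0.065, 0.0995 and -0.029, against 1.13, 0.63 and 0.55 for all genes. Among the genes named here, the called ratios of Cpsf1, Cstf1, Dhx33, Snrnp70, Snrpa1, Snrpg and Srsf7 in bone marrow Venus+ against B220+ cells then lay above 0. Under it the median of the snRNP proteins lay above 0 in all 3 comparisons, that of the DEAD-box helicases in both comparisons with B220+ cells, those of the hnRNP proteins, DEAH-box helicases and CstF subunits in the spleen comparison, and those of the SF3 and CPSF subunits between the Venus+ populations. The distance of a median from that of all genes does not depend on this scale. Subtracting the scanner's background column with the normexp method left 27, 12 and 11 members lower, where 9.45%, 4.40% and 3.30% of all genes were lower, and put the members' medians -0.33, -0.062 and -0.29 from those of all genes. That column held 80.8%, 74.3% and 75.3% of the spot signal at the median detected probe of the bone marrow Venus+, spleen Venus+ and B220+ arrays, and whether it is local background was not tested. The normexp method also added an offset of 50 to every corrected spot, where the median uncorrected probe was 51.2, 54.6 and 60.5 on the same arrays. An added constant draws log2 ratios towards 0, and its part in these counts was not tested.

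The 3 arrays gave most members the same order. Of the 106 members detected on all 3, 81 (76.4%) were lowest in bone marrow Venus+, intermediate in spleen Venus+ and highest in B220+ cells, an order held by 40.8% of all such genes. The opposite order was found for 7 members (6.60%), against 30.1% of all genes. Spleen Venus+ cells were the highest for 15 members, among them Srsf4, Ddx54 and Dhx8, and bone marrow Venus+ cells were highest for the 7 of the opposite order, among them Srsf9, Cpsf4, Snrpn and Ddx4. An order counts differences of any size, also within the spot error.

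**Figure D2:**
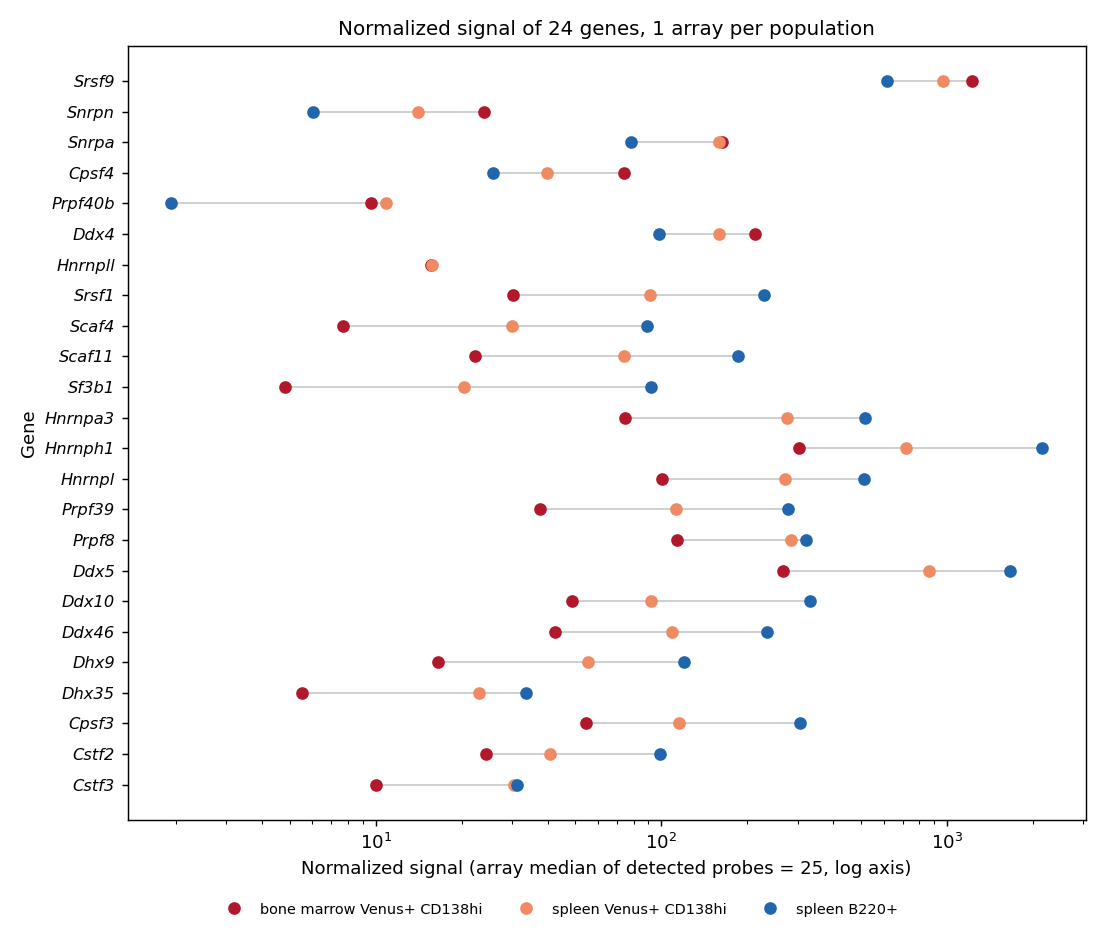
Normalised signal (horizontal log axis) of 24 genes on the bone marrow Venus+ (dark red), spleen Venus+ (orange) and B220+ (blue) arrays, with 1 array each and a grey line over the range of a gene. In the upper rows, up to Hnrnpll, the Venus+ points lie at or right of the B220+ point, which is missing for Hnrnpll because it was not detected there, and in the rows below them the bone marrow point lies leftmost.

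Promoter motifs were counted for the members and for larger sets of genes. Lower members were not set apart from the others, so a relation of the motifs to lower signals was not tested. A RefSeq promoter (GRCm38.p6) was found for 104 of the 114 members, with 138 start sites in all. Each window, from 250 bases before a start to 50 bases after it, was searched on both strands for 7 short motifs. The letters CCGGAAG, a core of sites bound by ETS factors, were in 36.2% of the members' windows, in 16.3% of the 11016 windows of genes detected on all 3 arrays, and in 8.86% of all 32851 windows. GCATGCGC, bound by NRF1, was in 7.25%, 4.86% and 2.71% of the same 3 sets, and AAGATGGCG, bound by YY1, in 3.62%, 2.79% and 1.40%. CCAAT was in 41.3%, 37.1% and 37.4%, and TATAAA in 7.25%, 8.52% and 13.6%. TGACGTGG, bound by XBP1, was in 2.17%, 0.899% and 0.676%, and GTGAAAG, a core bound by Blimp1, in 1.45%, 3.75% and 4.24%. The median GC content was 60.7%, 60.0% and 52.7%. A match describes the letters and is no sign that a factor binds.

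Printed below are the 250 bases before the start of Sf3b1, the member with the lowest ratio to B220+ cells, of Ddx10, a strongly lower helicase, and of Cpsf4, which was higher in bone marrow Venus+ cells. Capitals mark the searched motifs, each sequence runs 5′ to 3′ on the gene's own strand, and coordinates are those of GRCm38.p6. None of the searched motifs contains another.
Sf3b1 (chr1:55027479-55027728, minus strand): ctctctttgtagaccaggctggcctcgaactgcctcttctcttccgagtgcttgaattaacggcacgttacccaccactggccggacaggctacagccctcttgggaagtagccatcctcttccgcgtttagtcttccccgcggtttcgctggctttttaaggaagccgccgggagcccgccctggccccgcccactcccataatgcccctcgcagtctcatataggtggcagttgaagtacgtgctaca
Ddx10 (chr9:53248113-53248362, minus strand): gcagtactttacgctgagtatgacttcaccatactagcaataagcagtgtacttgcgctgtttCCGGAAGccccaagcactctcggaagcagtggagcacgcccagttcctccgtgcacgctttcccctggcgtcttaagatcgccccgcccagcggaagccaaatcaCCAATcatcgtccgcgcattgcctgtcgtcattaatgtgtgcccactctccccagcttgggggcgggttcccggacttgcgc
Cpsf4 (chr5:145166963-145167212, plus strand): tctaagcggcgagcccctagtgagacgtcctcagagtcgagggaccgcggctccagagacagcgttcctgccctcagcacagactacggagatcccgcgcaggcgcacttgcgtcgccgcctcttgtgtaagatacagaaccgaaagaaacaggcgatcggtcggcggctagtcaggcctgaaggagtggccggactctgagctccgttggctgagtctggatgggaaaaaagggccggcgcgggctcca
The Ddx10 window holds the ETS letters 187 bases before the start and CCAAT 82 bases before it. None of the 7 motifs is in the 250 printed bases of Sf3b1 and Cpsf4, so both a lower and a higher gene lack them there.

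SR proteins bind exonic enhancers and bring the spliceosome to nearby splice sites. In the reported values the family named for them was among those furthest below all genes. The median log2 ratio of the 15 was -1.79 in bone marrow Venus+ against B220+ cells (12 of 15 lower, 0 higher), -0.80 in spleen Venus+ against B220+ cells (5 lower) and -0.97 in bone marrow against spleen Venus+ cells (7 lower). With the background column subtracted by normexp, 4, 2 and 0 were lower in the same order, and the medians were -0.49, -0.19 and -0.36. In the first comparison the medians of the CstF subunits (-1.14), hnRNP proteins (-0.99) and SF3 subunits (-0.71) were then lower. The 15 include Clasrp, Scaf11, Scaf4, Sfswap, Srek1 and Sugp2, which no longer carry the name, and no median was taken without them. Genes now named Srsf ran from -2.92 (Srsf1) to 0.99 (Srsf9) in bone marrow Venus+ against B220+ cells. Scaf4, which in human cells restrains early polyadenylation, had a signal of 7.68 in bone marrow Venus+, 29.9 in spleen Venus+ and 89.1 in B220+ cells. Its bone marrow signal was 11.6-fold lower than in B220+ cells (log2 ratio -3.54 ± 0.26). For Scaf11, an SR-related protein, the signals were 22.3, 74.1 and 185 in the same order, 8.29-fold lower in the bone marrow (-3.05 ± 0.15) and 2.49-fold lower in the spleen (-1.32 ± 0.14) than in B220+ cells. These are the 2 lowest ratios of the family, and the Venus+ populations differed from each other by more than 3-fold in both.

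Srsf1, the first described SR protein and an activator of exon inclusion, gave 30.3 in bone marrow Venus+, 90.98 in spleen Venus+ and 229 in B220+ cells, with log2 ratios to B220+ cells of -2.92 ± 0.14 and -1.33 ± 0.14. The gene listed as Sfrs10, an older symbol that several genes share, gave 60.6, 174 and 387. Sfswap, a regulator of alternative splicing, gave 58.2, 114 and 332, 5.71-fold and 2.91-fold lower in bone marrow and spleen Venus+ than in B220+ cells. All 3 were lowest in the bone marrow and highest in B220+ cells. Srsf7 was lower only in the bone marrow comparison with B220+ cells, with 382, 472 and 822 (-1.11 ± 0.13). Srek1, Srsf6, Srsf11, Srsf5, Srsf2 and Sugp2 were likewise lower there by 2.06-fold to 3.85-fold, and none of these 6 passed 2-fold in spleen Venus+ against B220+ cells.

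The remaining 3 of this family did not pass 2-fold against B220+ cells. Srsf9, an SR protein with a short RS domain, gave 1227 in bone marrow Venus+, 971 in spleen Venus+ and 619 in B220+ cells, the highest ratio of the family, at 0.99 ± 0.13 in the bone marrow and 0.65 ± 0.14 in the spleen. Srsf4 gave 70.001, 127 and 95.7 and Clasrp, which binds a kinase of SR proteins, 9.48, 11.2 and 8.57.

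The SF3A and SF3B complexes belong to the U2 snRNP and hold it at the branch point. Sf3b1, the large SF3B subunit that clamps the branch site, had the lowest ratio of all 114 genes. Its signal was 4.82 in bone marrow Venus+, 20.4 in spleen Venus+ and 92.1 in B220+ cells, 19.1-fold lower in the bone marrow (-4.26 ± 0.38) and 4.52-fold lower in the spleen (-2.17 ± 0.15) than in B220+ cells. The bone marrow signal lies close to the lowest detected signal of that array, 2.35. The other large subunits moved less. Sf3b3 gave 89.2, 247 and 325 and Sf3b2 245, 440.4 and 797, 3.64-fold and 3.25-fold lower in the bone marrow than in B220+ cells, and 1.32-fold and 1.81-fold in the spleen.

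Sf3a3 was also lower in the bone marrow, by 2.59-fold, which made 4 of 7 lower and a family median of -1.37 there. Sf3b5, a small SF3B subunit, gave 473, 521 and 876 and Sf3a1 33.4, 52.8 and 61.3, neither past 2-fold. Sf3a2 was higher in both Venus+ populations, but its signals of 4.32, 4.75 and 2.12 are near the detection limit and its ratios of 1.03 ± 0.62 and 1.17 ± 0.54 carry a large spot error. In the spleen 1 of 7 was lower (Sf3b1) and the median was -0.75, and between the Venus+ populations 2 were lower and the median was -0.66. The share lower in the spleen, 14.3%, was below the 16.5% of all genes.

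The hnRNP proteins coat nascent transcripts. Their median log2 ratio was -1.58 in bone marrow Venus+ against B220+ cells (9 of 12 lower, 0 higher), -0.63 in spleen Venus+ against B220+ cells (1 of 13 lower) and -0.91 in bone marrow against spleen Venus+ cells (5 of 13 lower). The share lower in the spleen comparison, 7.69%, was below the 16.5% of all genes. Hnrnph1, which binds G-rich sequences, gave 303 in bone marrow Venus+, 718 in spleen Venus+ and 2150.0 in B220+ cells, and was the only member of the family lower in both organs by the probe used for each gene, with ratios of -2.83 ± 0.13 and -1.58 ± 0.14. Hnrnpa3, an RNA-binding protein of the A/B group, gave 74.4, 276 and 517 with the brighter of its 2 probes, 6.95-fold lower in the bone marrow than in B220+ cells. The other probe gave 75.8, 156 and 445, so both were lower in the bone marrow, while in the spleen the second alone passed 2-fold. Hnrnpa2b1 gave 434, 954 and 1799, a ratio of -2.05 ± 0.13 in the bone marrow and -0.92 ± 0.14 in the spleen.

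Hnrnpu, Hnrnpdl, Hnrnpul1 and Hnrnpk were 2.20-fold to 2.999-fold lower in bone marrow Venus+ cells than in B220+ cells. Hnrnpab, with 783, 757 and 955, Hnrnpa0, with 32.6, 42.6 and 47.05, and Hnrnpc stayed within 2-fold in every comparison. Hnrnpd, a regulator of mRNA decay, was at the limit of detection, with 1.75 in spleen Venus+ and 1.53 in B220+ cells and no detection in bone marrow Venus+ cells.

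Several members are known to act on Ighm or Ptprc transcripts, and here the values went in opposite directions. Ighm had 8234, 2433 and 10.97 in bone marrow Venus+, spleen Venus+ and B220+ cells, and Ptprc 301, 398 and 1966; the B220+ cells were sorted on a form of the Ptprc protein. The sources used here do not say which exons these probes target, so forms of either transcript are not separated. Hnrnpll, a repressor of variable Ptprc exons that is known in mice to rise in plasma cells, was detected in bone marrow Venus+ cells at 15.6 and in spleen Venus+ cells at 15.8 and was not detected in B220+ cells. It was at least 11.6-fold higher in the bone marrow and at least 11.7-fold higher in the spleen than in B220+ cells. No other member was detected in both Venus+ populations and missing in B220+ cells.

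The other 6 members of this list with a probe (Hnrnpl, Hnrnpf, Hnrnph1, Cstf2, Srsf1 and Srsf7) were all lower in bone marrow Venus+ cells than in B220+ cells, with a median log2 ratio of -2.18. In the spleen 3 of the 6 were lower (Hnrnph1, Cstf2 and Srsf1) and the median was -1.10, and between the Venus+ populations 3 of 7 were lower with a median of -0.83. Hnrnpl, which represses Ptprc exons too, gave 100.1, 272 and 510.1 (-2.35 ± 0.13 in the bone marrow). Hnrnpf, which is reported to compete with CstF at the Ighm polyadenylation site, gave 587, 1047 and 1982 (-1.75 ± 0.13). Hnrnpl and its close relative Hnrnpll therefore stood on opposite sides of B220+ cells in the bone marrow.

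The snRNP proteins form the core of the spliceosome's particles, and in the reported values their medians stood closest to that of all genes. Their medians were -0.44 in bone marrow Venus+ against B220+ cells (2 of 10 higher, 3 lower), -0.08 in spleen Venus+ against B220+ cells (2 of 11 higher, 1 lower) and -0.28 in bone marrow against spleen Venus+ cells (1 of 10 lower), which is -0.20, -0.06 and -0.11 relative to all genes. The shares lower of 30%, 9.09% and 10% were below those of all genes, at 30.7%, 16.5% and 15.2%. Neither sign nor rank of the medians is stable. Under quantile normalisation the first 2 were 0.13 and 0.40 relative to all genes, with the CstF subunits nearer in the spleen at -0.086. With the background column subtracted all 3 were -0.087, 0.24 and -0.39. The Prpf factors were then nearer in the first 2, at 0.0073 and 0.065, and the CPSF subunits were nearest in the spleen, at -0.027. Between the Venus+ populations only the hnRNP proteins (-0.77) and DEAD-box helicases (-0.47) then lay further from all genes than the snRNP proteins. Snrpa, a protein of the U1 snRNP, gave 164 in bone marrow Venus+, 159.6 in spleen Venus+ and 78.2 in B220+ cells and was higher in both organs (1.07 ± 0.13 and 1.03 ± 0.14). Snrpn, an imprinted Sm protein best known from neurons, gave 23.8, 14.004 and 6.03, 3.95-fold and 2.32-fold higher in bone marrow and spleen Venus+ than in B220+ cells.

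The U1-specific protein Snrnp70 gave 264 in bone marrow Venus+, 722 in spleen Venus+ and 615 in B220+ cells and was lower in the bone marrow, against B220+ cells (-1.22 ± 0.13) and against the spleen (-1.45 ± 0.11). Snrpa1, a U2 snRNP protein, gave 178, 224 and 387 and the Sm protein Snrpd3 262, 237 and 367, of which Snrpa1 was lower in the bone marrow (-1.12 ± 0.13). For the Sm protein Snrpg the brighter probe gave 1078, 1673 and 2359 (-1.13 ± 0.13 in the bone marrow), and a dim probe was detected at 3.93 and 9.84 in spleen Venus+ and B220+ cells alone. The Sm proteins Snrpd1, Snrpd2 and Snrpb and the U1 protein Snrpc stayed within 2-fold in every comparison. Snrpf, an Sm protein with a dim probe, had 2.92 in spleen Venus+ and 6.33 in B220+ cells, was 2.17-fold lower in the spleen, and was at least 2.69-fold lower than in B220+ cells in bone marrow Venus+ cells, where it was not detected. Snrpb2, a U2 protein, was detected in B220+ cells alone, at 7.82, and was at least 3.33-fold lower in bone marrow and at least 4.50-fold lower in spleen Venus+ cells.

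Prpf factors take their name from yeast splicing mutants and serve different steps of splicing. Their medians were -1.51 in bone marrow Venus+ against B220+ cells (7 of 11 lower, 1 higher), -0.67 in spleen Venus+ against B220+ cells (5 lower, 1 higher) and -0.73 in bone marrow against spleen Venus+ cells (3 lower). With the background column subtracted by normexp, 2, 0 and 0 were lower in the same order, and the medians were -0.012, 0.017 and -0.19. Prpf39, a protein of the U1 snRNP in yeast, gave 37.6 in bone marrow Venus+, 113 in spleen Venus+ and 278 in B220+ cells, 7.40-fold and 2.47-fold lower than in B220+ cells. The kinase Prpf4b gave 89.8, 165 and 524 and Prpf18, a factor of the second step, 30.03, 68.6 and 167. Both were lower in both organs, with ratios in the spleen of -1.66 ± 0.14 and -1.28 ± 0.14.

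Prpf38a and Prpf38b were also lower in both organs, and Prpf3, of the tri-snRNP, in the bone marrow. Prpf8, the protein at the centre of the spliceosome, gave 113 in bone marrow Venus+, 284 in spleen Venus+ and 322 in B220+ cells, so it was lower in the bone marrow (-1.51 ± 0.13) and close to B220+ cells in the spleen (-0.18 ± 0.14). Prpf6, with 76.3, 130.1 and 145, Prpf31 and Prpf19, a ubiquitin ligase with 46.3, 38.7 and 47.6, stayed within 2-fold in every comparison. Prpf40b, a U1-associated protein, was the largest rise among the members with a ratio, at 9.64 in bone marrow Venus+, 10.8 in spleen Venus+ and 1.92 in B220+ cells (2.32 ± 0.55 and 2.49 ± 0.53). The B220+ value is close to the lowest detected signal of its array, 1.34.

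DEAD-box helicases work at every stage of RNA life, and their ratios in bone marrow Venus+ against B220+ cells ran between -2.77 and 1.15. The medians of the 31 genes were -0.79 in bone marrow Venus+ against B220+ cells (13 of 29 lower, 2 higher), -0.38 in spleen Venus+ against B220+ cells (10 of 31 lower, 0 higher) and -0.76 in bone marrow against spleen Venus+ cells (7 of 29 lower, 0 higher). Ddx10, a helicase of ribosome assembly, gave 48.8 in bone marrow Venus+, 92.1 in spleen Venus+ and 332 in B220+ cells, with ratios of -2.77 ± 0.14 and -1.85 ± 0.14. Ddx5 and Ddx17 are closely related helicases that act in splicing and transcription. Ddx5 gave 266, 862 and 1660.0 in the same order, 6.23-fold lower in the bone marrow than in B220+ cells. Ddx17 gave 112, 267 and 573, 5.12-fold lower there, and both were also lower in bone marrow than in spleen Venus+ cells.

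Ddx46, which helps the U2 snRNP onto the branch site, gave 42.5 in bone marrow Venus+, 109 in spleen Venus+ and 235 in B220+ cells and was lower in both organs. Of the helicases of ribosome assembly, Ddx52 gave 45.3, 91.2 and 268 in the same order. Ddx55 gave 9.35, 19.5 and 48.8, and Ddx21 gave 43.6, 75.8 and 182. All 3 were lower in both organs. So was Ddx6, a repressor of translation that acts with the decapping machinery, with 85.1, 168 and 411. Ddx42 and Eif4a3, the helicase of the exon junction complex, passed 2-fold in both organs too, and Ddx31, Ddx47 and Ddx3x in the bone marrow only.

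Both DEAD-box genes called higher are best known from germ cells. Ddx4, the mouse Vasa gene, gave 212 in bone marrow Venus+, 159 in spleen Venus+ and 97.8 in B220+ cells (1.12 ± 0.13 and 0.71 ± 0.14, the second within 2-fold). Ddx25, known from the testis, gave 5.15, 4.01 and 2.33, near the detection limit (1.15 ± 0.55 in the bone marrow). A further 3 helicases were detected in spleen Venus+ and B220+ cells but not in bone marrow Venus+ cells. Ddx20, a partner of the SMN protein in snRNP assembly, had 6.56 in spleen Venus+ and 13.2 in B220+ cells, a 2.01-fold lower signal in the spleen, and was at least 2.79-fold lower in the bone marrow than in the spleen and at least 5.61-fold lower than in B220+ cells. Ddx19b, of mRNA export, had 5.07 and 7.13 there, with bounds of 2.15-fold and 3.03-fold. Dhx57, a DEAH-box gene, had 3.97 and 6.47 with bounds of 1.69-fold and 2.75-fold. In all, 6 members were detected in B220+ and not in bone marrow Venus+ cells and 6 in spleen and not in bone marrow Venus+ cells, while 11.1% of all genes detected in B220+ and 8.61% of those detected in spleen Venus+ cells were missing in this way. Snrpb2 was the 1 member missing in spleen Venus+ and present in B220+ cells, against 4.5% of all genes.

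The DEAH-box helicases drive the rearrangements of the spliceosome and act in translation and in sensing of nucleic acids. Their medians were -1.56 in bone marrow Venus+ against B220+ cells (8 of 13 lower), -0.58 in spleen Venus+ against B220+ cells (4 of 14 lower) and -0.90 in bone marrow against spleen Venus+ cells (5 of 13 lower), with 0 higher in each. With the background column subtracted by normexp, 0 were lower in each comparison, and the medians were -0.19, -0.14 and -0.22 in the same order. Dhx9, a nuclear helicase of long RNA duplexes, gave 16.5 in bone marrow Venus+, 55.3 in spleen Venus+ and 119.9 in B220+ cells, 7.25-fold and 2.17-fold lower than in B220+ cells. Dhx35, found in spliceosomes, gave 5.52, 22.9 and 33.5 and fell mainly between the Venus+ populations (-2.05 ± 0.33, bone marrow against spleen), its spleen ratio to B220+ cells being -0.55 ± 0.15. Dhx29, of translation initiation, gave 4.97, 14.2 and 21.8 and was lower in the bone marrow against both other populations. Dhx15, which takes spent spliceosomes apart, gave 92.8, 184 and 449 and Dhx40 98.2, 123 and 359, both lower in both organs than in B220+ cells.

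Dhx8, which releases the spliced mRNA, was highest in spleen Venus+ cells, with 30.9 in bone marrow Venus+, 57.5 in spleen Venus+ and 32.9 in B220+ cells, and did not pass 2-fold. Neither did Dhx37, with 12.7, 18.1 and 13.5, nor Dhx32, with 58.4, 70.9 and 83.2, nor Dhx30 and Dhx34. Dhx16 was lower in the bone marrow than in both other populations, by 2.94-fold against B220+ cells. Dhx38 was detected in spleen Venus+ cells alone, at 1.99.

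Helicases were also read by function, from lists that cut across both families. Of 11 helicases of the spliceosome cycle, 8 of 10 with a ratio were lower in bone marrow Venus+ cells than in B220+ cells (median -1.95), 5 of 10 in spleen Venus+ than in B220+ cells (-1.02) and 5 of 10 in bone marrow than in spleen Venus+ cells (-1.08). For 16 helicases of ribosome assembly the counts were 7, 4 and 3 lower and the medians -0.83, -0.29 and -0.78. These counts are 43.75%, 25% and 18.75%, against 30.7%, 16.5% and 15.2% of all genes. They are close to the 41.2%, 21.5% and 17.6% of genes in the brightness range used above, although some of the 16 lie outside that range. Of 6 helicases linked to antiviral sensing, 4, 2 and 3 were lower, with medians of -1.38, -0.42 and -0.98. Of these 6, Dhx9 and Dhx36 were lower in both organs, and Dhx36 had 33.6, 67.3 and 136 in bone marrow Venus+, spleen Venus+ and B220+ cells. Dhx33, with 52.3, 82.7 and 129, was lower in the bone marrow only. Ddx58, which encodes the RNA sensor RIG-I, with 145, 184 and 171, and Ddx41, with 78.5, 153 and 136, stayed within 2-fold. For Ddx3x, an X-linked helicase of translation, the brighter probe gave 148, 353 and 405 and the other 107, 256 and 676. Its spleen ratio to B220+ cells was -0.20 by the first probe and -1.40 by the other, so its call in the spleen depends on the probe, while both passed 2-fold in the bone marrow.

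At the 3′ end, the 6 genes named for CPSF on the array include Ints11, the endonuclease of the Integrator complex, and Cpsf6, of cleavage factor I, which are no CPSF subunits. The medians of the 6 were -1.39 in bone marrow Venus+ against B220+ cells (5 lower, 1 higher), -0.87 in spleen Venus+ against B220+ cells (3 lower) and -0.59 in bone marrow against spleen Venus+ cells (2 lower). Cpsf3, the endonuclease that cuts the transcript, gave 54.5 in bone marrow Venus+, 115 in spleen Venus+ and 306 in B220+ cells. Its inactive partner Cpsf2 gave 67.9, 88.5 and 310.0, and Ints11 gave 95.3, 114 and 264. All 3 were lower in both organs, by 2.32-fold to 3.50-fold in the spleen and 2.77-fold to 5.61-fold in the bone marrow. Cpsf4, a zinc finger protein that contacts the polyadenylation signal, went the other way, with 74.2, 39.7 and 25.8, 2.88-fold higher in the bone marrow (1.53 ± 0.14) and within 2-fold in the spleen (0.63 ± 0.15). Cpsf1, the large subunit, gave 33.6, 68.3 and 77.6 and was lower in the bone marrow only, as was Cpsf6.

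CstF binds downstream of the cleavage site. All 3 subunits were lower in bone marrow Venus+ cells than in B220+ cells (median -1.64), 1 was lower in spleen Venus+ than in B220+ cells (-0.58) and 1 in bone marrow than in spleen Venus+ cells (-0.75). Cstf2, whose level has been linked to use of the secretory site of Ighm in B cell lines, gave 24.3 in bone marrow Venus+, 40.8 in spleen Venus+ and 98.7 in B220+ cells (-2.02 ± 0.15 and -1.27 ± 0.14). Cstf3 gave 10.04, 30.4 and 31.3, near equal in the spleen Venus+ and B220+ cells and 3.03-fold lower in bone marrow than in spleen Venus+ cells. Cstf1 gave 85.2, 114 and 171 and lay at 2-fold in the bone marrow (-1.003 ± 0.13).

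Genes of the same pathways outside these name stems were counted too. Of 13 other genes of 3′ end processing, 6 were lower and 1 higher in bone marrow Venus+ cells than in B220+ cells (median -0.65), 4 and 1 in spleen Venus+ than in B220+ cells (-0.59) and 3 and 0 in bone marrow than in spleen Venus+ cells (-0.65). The higher gene was Ell2, an elongation factor known to favour the secretory site of Ighm in plasma cells, with 94.9 in bone marrow Venus+, 84.6 in spleen Venus+ and 13.3 in B220+ cells (2.84 ± 0.15 and 2.67 ± 0.16). The lowest ratios in the bone marrow were those of the poly(A) polymerase gene Papolg (-3.97 ± 0.21), the termination factor Pcf11 (-3.30 ± 0.17) and the exonuclease Xrn2 (-2.92 ± 0.13). Of 46 other splicing genes, 34 of 43 with a ratio were lower and 1 higher in the bone marrow (median -1.75), 22 and 2 of 45 in the spleen (-0.99) and 20 and 0 of 43 between the Venus+ populations (-0.92). Ptbp2 (-4.29 ± 0.17), Mbnl1 (-3.29 ± 0.13) and Clk1 (-3.06 ± 0.13), all regulators of alternative splicing, were the lowest in the bone marrow, and Rbm10, another such regulator, was the higher gene there (1.31 ± 0.17). In the spleen Rbm10 (1.72 ± 0.17) and Luc7l2, a U1-associated protein (1.16 ± 0.14), were the higher genes.

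**Figure D3:**
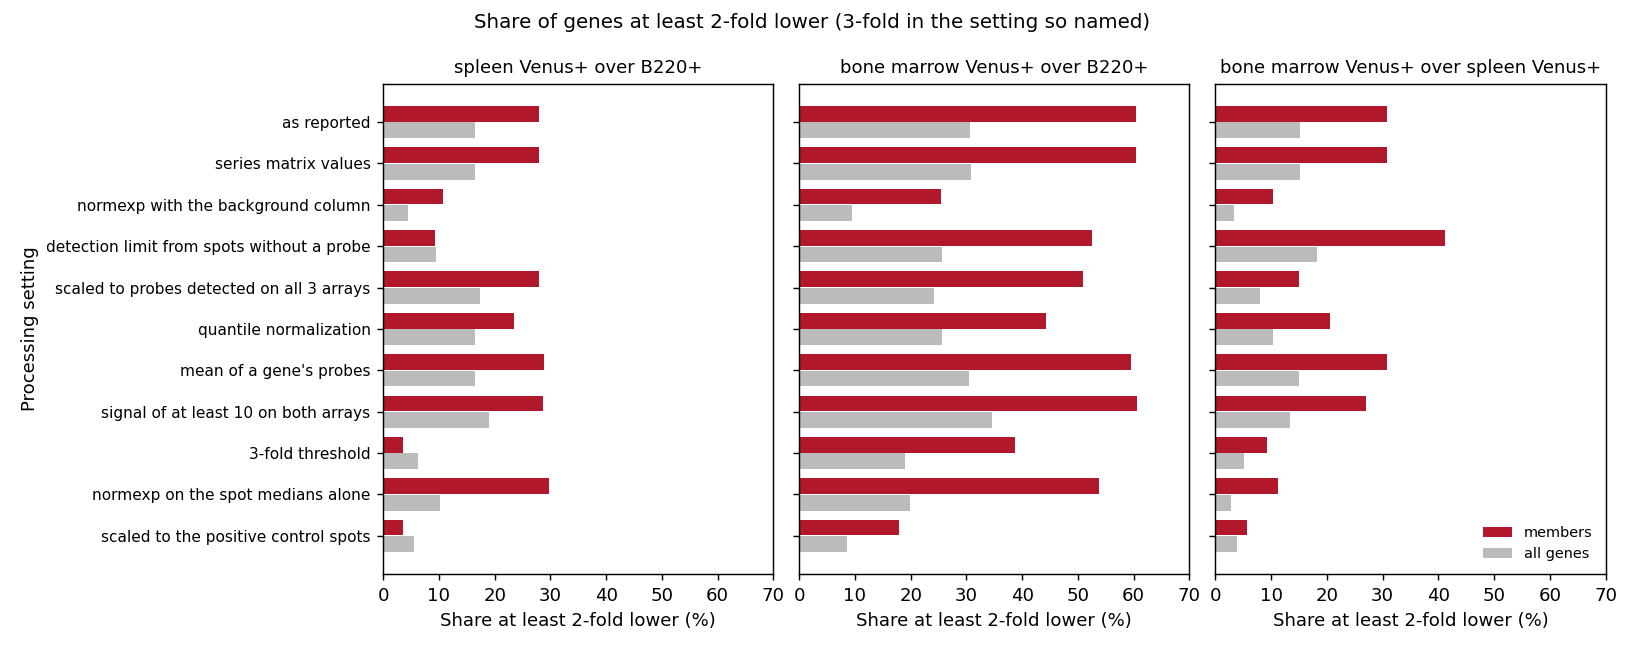
Share of genes at least 2-fold lower (horizontal axis, percent) among the members (dark red) and all genes (grey) under each processing setting (vertical axis), in 1 panel for each comparison. The members' share exceeded that of all genes in every setting for both comparisons of bone marrow Venus+ cells, and in the spleen comparison it did not at the 3-fold threshold, with positive control scaling or with a detection limit from spots without a probe.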

How the data were processed

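RNA of 3 sorted populations was amplified, labelled with Cy5 and hybridised to 3 Toray 3D-Gene mouse arrays, 1 for each, per the labels' protocols. The authors deposited scanner files that hold, per the file headers, the median intensity of each spot and a background column. They also deposited processed intensity values, for which, per the series' design text, the mean of the blank spots was subtracted and the median of the detected signals set to 25. That procedure was applied here to the scanner files. The blank mean was taken over the middle 90% of 2736 blank spots (2462), a probe was detected above that mean plus 2 SD, and detection calls differed from the deposited values for 0 probes. Among probes with a deposited value of at least 10, the largest relative difference from it was 2.89% in bone marrow Venus+, 4.05% in spleen Venus+ and 0.976% in B220+ cells. Spots marked faulty by the scanner (2, 1 and 0, none of them of a member) were left out.

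Of 23473 probes, 16631 had 1 gene symbol and 6842 had none. Symbols were updated with RefSeq's GRCm38.p6 gene table: of the 114 members 81 were current, 32 were updated, and 1 (Sfrs10) has a synonym shared by several genes and kept its name. The brightest probe stood for each of the 4 members with 2 probes. A gene detected on 1 array of a comparison has a lower bound, the bright signal over the higher of the dim array's lowest detected signal (2.35, 1.74 and 1.34 in bone marrow Venus+, spleen Venus+ and B220+ cells) and the probe's own signal. The spot error combines the blank SD (1.18, 0.868 and 0.670) and the CV of the positive control spots (5.21%, 5.77% and 7.57%). Bounds carry no such error and move with the scale of the arrays. They are not among the called log2 ratios counted under other settings. The recipe was tested on simulated data. No p-value is given, and precision is limited by having 1 array per population.

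Members and gene lists were chosen with earlier results of these data known. For each family and comparison, the genes named are the 2 largest and 2 smallest ratios, all differences of at least 4-fold, bounds of at least 2-fold, members linked to Ighm or Ptprc and antiviral helicases, and others are named in passing to complete a count. Of the non-member lists, the 3 smallest ratios and the genes past 2-fold upward are named with values. In addition, 8 alternative settings were planned and 2 were chosen after seeing the data (normexp on the spot medians alone and scaling to the positive controls). Tools were Python 3.11.15, pandas 2.3.3, numpy 2.4.6, matplotlib 3.10.9 and limma 3.58.1 in R 4.3.3.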

Additional observations from a re-analysis of the deposited data

How the results depend on the processing

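No paired analysis was possible because each population has 1 array, and for the same reason no replicate could be left out. Counts and medians below are given in the order bone marrow Venus+ over B220+, spleen Venus+ over B220+ and bone marrow over spleen Venus+, where the reported values were 7, 4 and 0 members higher, 64, 31 and 33 lower, and medians of -1.06, -0.53 and -0.58 relative to all genes. With the deposited processed values, none of these 9 moved by more than the spot error or, for counts, by over 1.5 times. Members' medians stayed below those of all genes in every setting tried.

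Normexp with the background column moved all 9: 0, 1 and 1 higher, 27, 12 and 11 lower, and medians of -0.33, -0.062 and -0.29. That column correlates with the spot median across spots (r of 0.957, 0.957 and 0.970 on the bone marrow Venus+, spleen Venus+ and B220+ arrays, log2 scale), and whether it is local background was not tested. Both normexp settings added an offset of 50, which draws log2 ratios towards 0, and the offset was not varied. With normexp on the spot medians alone, 0 and 0 members were higher in the comparisons with B220+ cells, and bone marrow over spleen had 12 lower and a median of -0.41. Quantile normalisation gave medians of -0.83 and -0.26 in the comparisons with B220+ cells and 2 higher members between the Venus+ populations. Scaling to probes detected on all 3 arrays gave 2 higher and 16 lower there, and averaging a gene's probes gave 1 higher there (Snrpg). Scaling to the positive controls gave 20, 15 and 5 higher and 19, 4 and 6 lower. A detection limit from spots without a probe gave 10 lower members in spleen Venus+ over B220+. With signals of at least 10 on both arrays, 3 and 1 members were higher in the comparisons with B220+ cells and the bone marrow median was -0.83, since fewer dim genes are compared. A 3-fold threshold gave 2 and 1 higher there and 41, 4 and 10 lower. Other than where the setting itself shows it, the cause was not tested.

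Named calls were less stable than directions. Of 109 called log2 ratios of named genes, 57 kept their direction but no longer passed 2-fold with the background column, 62 with positive control scaling, 37 with normexp on the spot medians alone, 28 with quantile normalisation and 18 with scaling to probes on all 3 arrays, and 23 of the 104 still measured under the detection limit taken from empty spots. A further 18 of the 109 changed sign with the background column. In bone marrow Venus+ over B220+ these were Cpsf2 (0.052), Cstf3 (0.022), Ddx10 (0.24), Dhx29 (0.032), Prpf39 (0.49), Prpf8 (0.66), Snrpg (0.44) and Snrpn (-0.00051). In spleen Venus+ over B220+ they were Cpsf2 (0.37), Ddx10 (0.30), Prpf39 (0.73), Scaf11 (0.10) and Sf3a2 (-0.023), and in bone marrow over spleen Venus+ Ddx55 (0.092), Dhx29 (0.17), Prpf8 (0.079), Scaf4 (0.14) and Sf3b1 (0.0038). Scaling to the positive controls turned 7 in bone marrow Venus+ over B220+: Cpsf1 (0.17), Cstf1 (0.37), Dhx33 (0.072), Snrnp70 (0.15), Snrpa1 (0.25), Snrpg (0.24) and Srsf7 (0.27). Normexp on the spot medians alone turned Snrpf in the spleen (0.038), and averaging probes turned Snrpg in the bone marrow (2.82), because its dim probe was not detected there. The other 5 settings at the 2-fold threshold turned no sign among the values they could give, though 3 of them ended the calls counted above. Signal over background limits the dim members most, among them Sf3a2, Ddx25, Snrpf, Hnrnpd and the B220+ value of Prpf40b.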

Other observations

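Genes whose current symbol carries 1 of the name stems but whose array symbol does not were left out by the choice of members. There were 7 of these: Cpsf4l, Cpsf7, Ddx39b, Dhx58, Sf3b6, Srsf10 and Srsf12. Cpsf7, a subunit of cleavage factor I, gave 124 in bone marrow Venus+, 293 in spleen Venus+ and 543 in B220+ cells, a log2 ratio of -2.13 ± 0.13 in the bone marrow. Srsf10, an SR protein that represses splicing when dephosphorylated, gave 14.5, 23.0 and 56.6 (-1.97 ± 0.18 and, in the spleen, -1.30 ± 0.15). Sf3b6, which lies at the branch point adenosine, gave 515, 575 and 1264 and Ddx39b, of splicing and mRNA export, 67.4, 97.5 and 187, both lower in bone marrow Venus+ cells than in B220+ cells (-1.29 and -1.47). Dhx58, which encodes the RIG-I relative LGP2, gave 41.3, 33.4 and 36.7, and Srsf12 28.1, 24.4 and 19.3, neither past 2-fold. Cpsf4l gave 2.87, 2.798 and 4.003, near the detection limit.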
